A study of Mus musculus with 2 samples.

Results

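Clu is 1 gene of the 21938 protein-coding genes annotated on chromosomes 1 to 19, X and Y of the mouse. It was chosen by name, and its chromatin accessibility was followed in single hematopoietic stem cells (HSCs) across the gene and its surroundings. The gene (ENSMUSG00000022037.15) lies on the plus strand of chromosome 14 of mm10, chr14:65968483-65981547, and spans 13065 bp. The window analysed is the gene with 100 kb on either side, chr14:65868483-66081547.

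Single-cell ATAC-seq was made from 2 groups of 1 library each. Young HSCs came from the bone marrow of C57BL/6 mice 10 weeks old, and aged HSCs from C57BL/6 mice 20 months old. No treatment or engineered allele is named for either group, and both were sorted by the same surface phenotype, lineage-negative, IL-7-, Sca-1+, c-kit+, CD34-, CD150+, CD48- and Flt3-. IL-7- is the spelling of the label, and the antibody in the methods is against the IL-7 receptor. The number of mice behind each library is not given in the sources used here. With 1 library per age there was no biological replicate, so no test between ages was possible, and each interval below is a 95% interval that covers counting error only.

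Clu encodes clusterin, also called apolipoprotein J, a secreted glycoprotein that acts as an extracellular chaperone. It binds partly unfolded proteins, restrains the terminal complement complex, and is taken up by receptors of the low-density lipoprotein receptor family. In the blood system Clu is known as a gene with more transcript in HSCs of old mice. In ATAC-seq a transposase cuts DNA where chromatin is open and joins adapters to the ends, so the number of sequenced fragments with an end in a region measures how accessible the region was.

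The young library held 53786133 and the aged library 48333115 unique fragments. Barcodes called as cells and carrying 3000 to 20000 in-peak fragments numbered 4887 young and 3405 aged cells, with medians of 9890 and 11020 fragments per cell. The libraries shared 26 cell barcodes. Values are given as fragments per 1000000 in-peak fragments (FPM), in-peak being counted over peaks called here, which took 69.3% of young and 67.7% of aged fragments. Fragments shorter than the DNA wound on 1 nucleosome made up 59.8% of young and 55.0% of aged fragments. Counted over such short fragments alone, the log2 ratios of aged to young reported below were 0.49 for the Clu promoter, 0.52 for the gene body and 0.38 for the window, within the counting intervals of the values over all fragments. Of the HSC marker promoters, Kit had 51.2 and 47.9 FPM in young and aged cells, Hlf 35.6 and 33.7, Fgd5 22.4 and 21.7, Gata2 18.9 and 21.9, Procr 14.6 and 16.8, and Slamf1 7.09 and 9.59. Mecom had 0.519 and 0.535 FPM at the 1 annotated TSS used, but 27426 and 22820 fragments over its gene body, a log2 ratio of 0.14. The log2 ratio of Slamf1, which encodes the CD150 of the sort, was 0.44 (0.18 to 0.69). The promoters of 4 B cell markers summed to 7.84 and 7.45 FPM, and those of 4 T cell markers to 5.16 and 2.83 FPM. Sums over 4 markers each were 102.2 and 90.5 FPM for megakaryocytes, 47.1 and 45.1 for erythroid cells, 9.31 and 8.41 for mature myeloid cells and 51.4 and 55.5 for endothelial cells. The 4 stromal markers summed to 41.4 and 47.3 FPM, with Lepr, the leptin receptor, at 4.09 and 7.07 FPM. None of these markers was at 0 in either library, and their part in the values at Clu was not tested.

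The Clu promoter was open in both ages and more so in aged cells, by less than 1.5-fold. The transcription start site (TSS) with 1 kb on either side took 1208 fragments in young and 1201 in aged cells, which is 34.8 FPM (32.9 to 36.9) and 45.9 FPM (43.3 to 48.6). The intervals did not overlap, and the log2 ratio of aged to young was 0.40 (0.28 to 0.51). By level, this promoter ranked 5693 of 21755 protein-coding promoters in young cells and 2844 in aged cells, counted from the most accessible.

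Ratios over the gene body were somewhat larger than at the promoter, with intervals that overlap. The body shares its first 1 kb with the promoter region. Over the gene body 46.9 FPM was found in young and 64.5 FPM in aged cells, a log2 ratio of 0.46 (0.36 to 0.56). Without the first 1 kb the body gave 15.2 and 22.5 FPM, a log2 ratio of 0.57 (0.39 to 0.74). That part held 527 young and 589 aged fragments, of which 199 and 339 lay at 1 peak, the +2.3 kb element described below. The region upstream also differed, since the 100 kb before the gene, less the last 1 kb, gave 46.5 and 61.6 FPM and a log2 ratio of 0.41 (0.31 to 0.51). The 100 kb after the gene differed least, with 46.0 and 50.6 FPM and a log2 ratio of 0.14 (0.03 to 0.24).

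As background, a ratio is called higher or lower here when it passes 1.5-fold over at least 20 fragments in both libraries together. Among 17711 promoters with that many fragments 5.42% were higher and 2.78% lower in aged cells, with a median log2 ratio of -0.05. Among 19592 gene bodies the shares were 4.86% and 1.22%, with a median of -0.02. Neither the promoter nor the body of Clu passed 1.5-fold. The promoter ratio ranked 1626 of 17711 from the highest, and the gene body ratio 1382 of 19592.

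**Figure D1:**
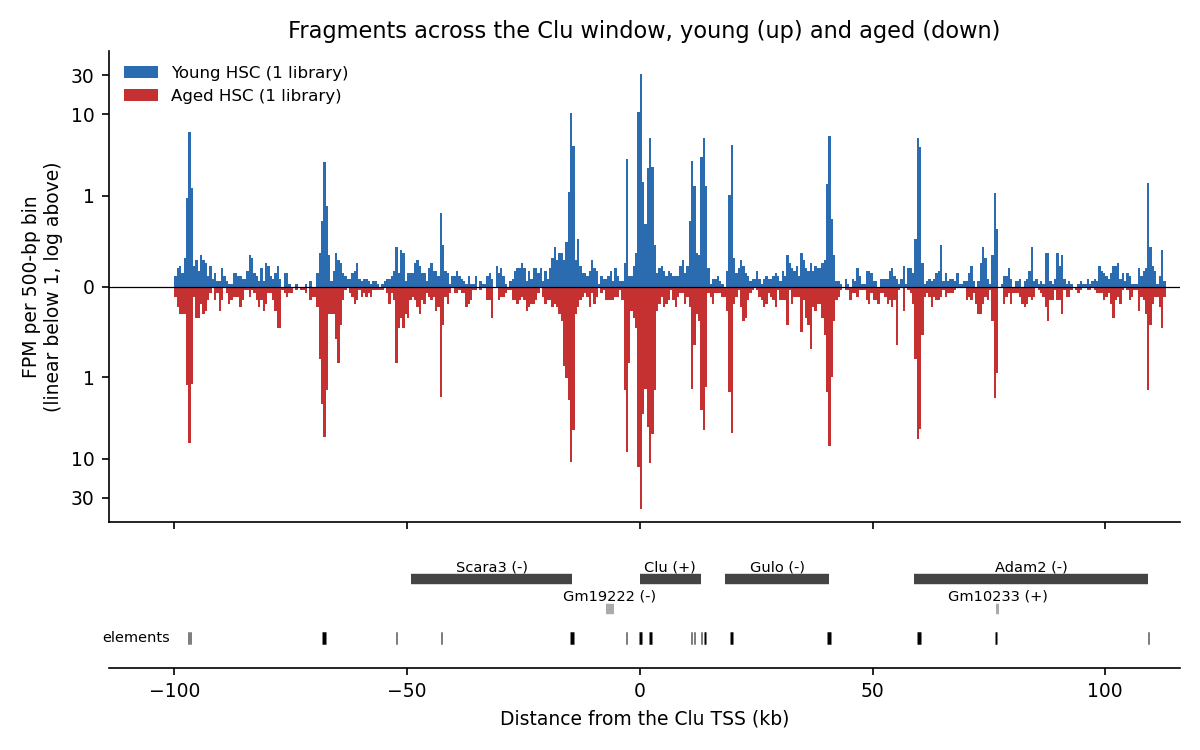
Accessibility across the Clu window in 500-bp bins, by distance from the Clu TSS in kb (x axis) and in FPM (y axis, linear below 1 and logarithmic above), with young HSCs drawn upwards and aged HSCs downwards, 1 library each. Dark bars under the plot are protein-coding genes, grey bars pseudogenes and black ticks the 18 elements; the promoter bin is the tallest in both ages, at 31.3 FPM in young and 41.2 FPM in aged cells.

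In bins of 500 bp, higher bins lay mostly before the gene and at its start. Of the 426 bins of the window, 70 reached 20 fragments, and 28 of these were higher in aged cells (40.0%), 6 were lower (8.57%) and 36 lay within 1.5-fold. The minimum is on the sum of both libraries, so a bin with few fragments in 1 library enters through the one where it is high, and these counts are a description. Over all such bins of the autosomes and X, 18.4% were higher and 10.1% lower. Upstream of the TSS 16 of 31 bins were higher and 2 lower, within the gene body 6 of 13 were higher and 3 lower, and downstream of the gene 6 of 26 were higher and 1 lower. Of the 28 higher bins, 16 lie in 3 stretches of the plot of accessibility by distance, and the other 12 are scattered, among them all 6 downstream of the gene. One stretch holds 3 bins in a row that begin 3.5 kb before the TSS. The middle one, over the -2.9 kb element, went from 97 to 217 fragments, while its neighbours, with 9 and 37 and with 4 and 22 fragments, reached the minimum through the aged library and add no support. Another is formed by 6 bins in a row that begin at 0.5 kb and end at 3.5 kb after the TSS. In that stretch, bins with few fragments in young cells were not set apart. The third lies between 69 and 64 kb before the TSS, where 7 of the bins were higher. Those over the -67.9 kb element went from 25 to 55, from 91 to 142 and from 31 to 38 fragments. The others had 13 and 21, 13 and 15, 10 and 22, and 9 and 11 fragments. Each of these had fewer than 20 in young cells, so they add no support either. The 3 lower bins of the gene body are neighbours that begin 10.5, 11 and 11.5 kb after the TSS, with 25 and 6, 93 and 36, and 46 and 17 fragments in young and aged cells. The first and last of them had fewer than 20 fragments in aged cells and reached the minimum through the young library.

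Peaks called in the window, named elements below by the distance of their centre from the Clu TSS, numbered 18. Of these, 16 were called in both libraries, 1 in young cells only and 1 in aged cells only, and their lengths ran from 120 to 910 bp. All 18 had at least 20 fragments. The ratio was higher at 6, lower at 2 and within 1.5-fold at 10, which is 33.3% higher and 11.1% lower. These counts include the 2 elements called in 1 library only, the -52.2 kb element (aged) and the +11.7 kb element (young), which each entered through the library where the value is higher. Among the 16 called in both, the ratio was higher at 5, lower at 1 and within 1.5-fold at 10. Of 163794 peaks over the autosomes and X, 16.8% were higher and 10.5% lower, with a median log2 ratio of 0.01 against 0.21 over the elements. The interval of the ratio lay above 0 at 5 elements and below 0 at 2, of which the +11.7 kb element is 1, and it included 0 at the other 11. Over all peaks no share was taken for such intervals, or for peaks called in both libraries alone. The counts by interval and among the 16 are thus a description.

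**Figure D2:**
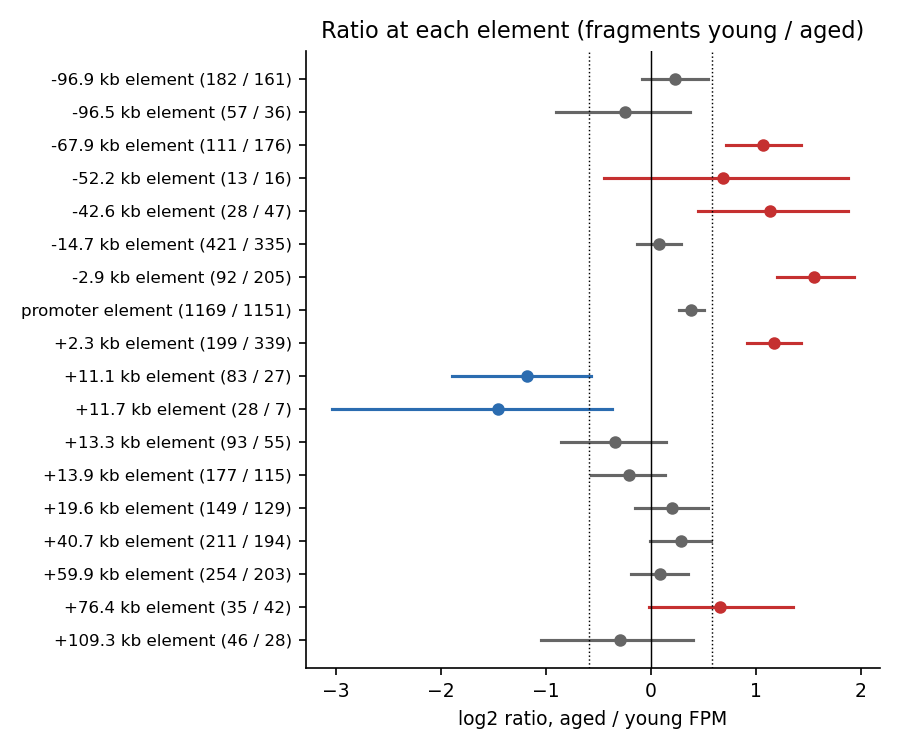
Log2 ratio of aged to young FPM (x axis) at each of the 18 elements (y axis, with the fragments in young and aged cells in brackets), points with 95% counting intervals; dotted lines mark 1.5-fold, red is higher and blue is lower. The -2.9 kb, +2.3 kb and -67.9 kb elements lie to the right with narrow intervals, and the promoter element, with the most fragments, lies at 0.38.

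The largest ratio among the elements was found just upstream of the promoter. The -2.9 kb element, chr14:65965501-65965760, lies between genes, with the pseudogene Gm19222 further upstream. It took 92 fragments in young and 205 in aged cells, 2.65 FPM (2.14 to 3.25) and 7.83 FPM (6.80 to 8.98), a log2 ratio of 1.55 (1.20 to 1.93). That interval lay wholly above the interval of the promoter element, 0.27 to 0.50. The cut sites peaked at the same position in both ages, at -2817 bp from the TSS, and the left and right sides of the element had ratios of the same sign, 1.60 and 1.32. Short fragments made up 81.5% of its fragments in young and 71.2% in aged cells. Among all peaks its ratio ranked 5140 of 163794 from the highest.

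The second element near the promoter lies inside the gene. The +2.3 kb element, chr14:65970521-65971120, is in intron 1 of the longest transcript, and 3 of the 9 annotated Clu transcripts (Clu-202, Clu-204 and Clu-203) begin within it, 2137, 2321 and 2575 bp after the TSS of the gene. It may thus be read as an intronic element or as the start region of these shorter transcripts, and the data do not tell the readings apart. Fragments numbered 199 in young and 339 in aged cells, 5.74 FPM (4.97 to 6.59) and 13.0 FPM (11.6 to 14.4), with a log2 ratio of 1.17 (0.92 to 1.43). The 50 bp with the most cut sites lay at 2133 bp in young cells, with 48, and at 2373 bp in aged cells, with 89, and the profiles of both ages rise near both positions. Both sides of the centre nevertheless had ratios of like size, 1.02 (0.74 to 1.30) and 1.24 (0.97 to 1.53).

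Further from the gene, the -67.9 kb element, chr14:65900171-65901080, was the only other higher one with more than 100 fragments. It lies between genes and took 111 and 176 fragments. Its levels were 3.20 FPM (2.63 to 3.85) and 6.73 FPM (5.77 to 7.80), and the log2 ratio was 1.07 (0.72 to 1.43). Its side farther from Clu had a ratio of 1.44 (1.02 to 1.88) and its nearer side one of 0.85 (0.53 to 1.18), intervals that overlap. The -42.6 kb element in intron 5 of Scara3 took 28 and 47 fragments, a log2 ratio of 1.13 (0.45 to 1.88). In cells thinned to equal depth its ratio was 0.63 (-0.44 to 1.72), which includes 0. The +76.4 kb element, in an intron of Adam2 and over the pseudogene Gm10233, took 35 and 42 fragments, a log2 ratio of 0.66 (-0.01 to 1.36). Only 14.3% and 23.8% of its fragments were short, the lowest shares among the elements. The -52.2 kb element was the sixth of the higher elements, with 13 and 16 fragments and an interval that included 0.

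Accessibility was lower in aged cells at an element near the 3′ end of the gene. The +11.1 kb element, chr14:65979451-65979690, was called in both libraries and overlaps exon 7 of the 9 exons of the longest transcript. It took 83 fragments in young and 27 in aged cells, 2.39 FPM (1.91 to 2.97) and 1.03 FPM (0.68 to 1.5), a log2 ratio of -1.18 (-1.90 to -0.57). The cut sites peaked 11093 bp after the TSS in both. The +11.7 kb element in intron 7 took 28 and 7 fragments, but it was called in young cells only and so entered through the library where it is higher. Just past the end of the gene, the +13.3 kb and +13.9 kb elements had log2 ratios of -0.34 (-0.86 to 0.15) and -0.21 (-0.57 to 0.13), which include 0. The gene body ratio sums a start region with more signal and the +11.1 kb element with less signal in aged cells.

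At the 2 elements with the most fragments the ratio lay within 1.5-fold. The promoter element, chr14:65968321-65968920, which covers the start of exon 1 and the starts of 3 annotated transcripts, went from 33.7 FPM (31.8 to 35.7) to 44.0 FPM (41.5 to 46.6). Its log2 ratio of 0.38 (0.27 to 0.50) was alike on both sides of its centre, at 0.36 and 0.40. Short fragments made up 81.7% of its fragments in young and 82.7% in aged cells, although the libraries as wholes differed in that share. The -14.7 kb element at the promoter of Scara3 had 12.1 FPM in young and 12.8 FPM in aged cells, and a ratio of 0.08 (-0.14 to 0.29). The +40.7 kb element at the Gulo promoter gave 0.29 (-0.0038 to 0.57), and the +59.9 kb element at the 3′ end of Adam2 gave 0.08 (-0.19 to 0.36).

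Sums over elements show where the aged cells had more signal. The window as a whole had 141.8 FPM in young and 179.9 FPM in aged cells, a difference of 38.1 FPM, and its log2 ratio was 0.34 (0.29 to 0.40). The promoter element made up 10.3 FPM of that difference. The -67.9, -2.9 and +2.3 kb elements, grouped after their values were seen, made up 15.9 FPM, and the remaining 14 elements 2.06 FPM. Fragments outside the elements made up 10.1 FPM, with 46.0 FPM in young and 56.2 FPM in aged cells, and since some fragments end in 2 elements the parts sum to slightly more than the whole. Elements took 67.5% of the fragments of the window in young and 68.8% in aged cells. Outside the elements the log2 ratio of the window was 0.29 (0.18 to 0.39). Part of this is shared by the whole library, since 69.3% of young and 67.7% of aged fragments lay in peaks. The ratio over all fragments outside peaks was not taken, so this value has no background.

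**Figure D3:**
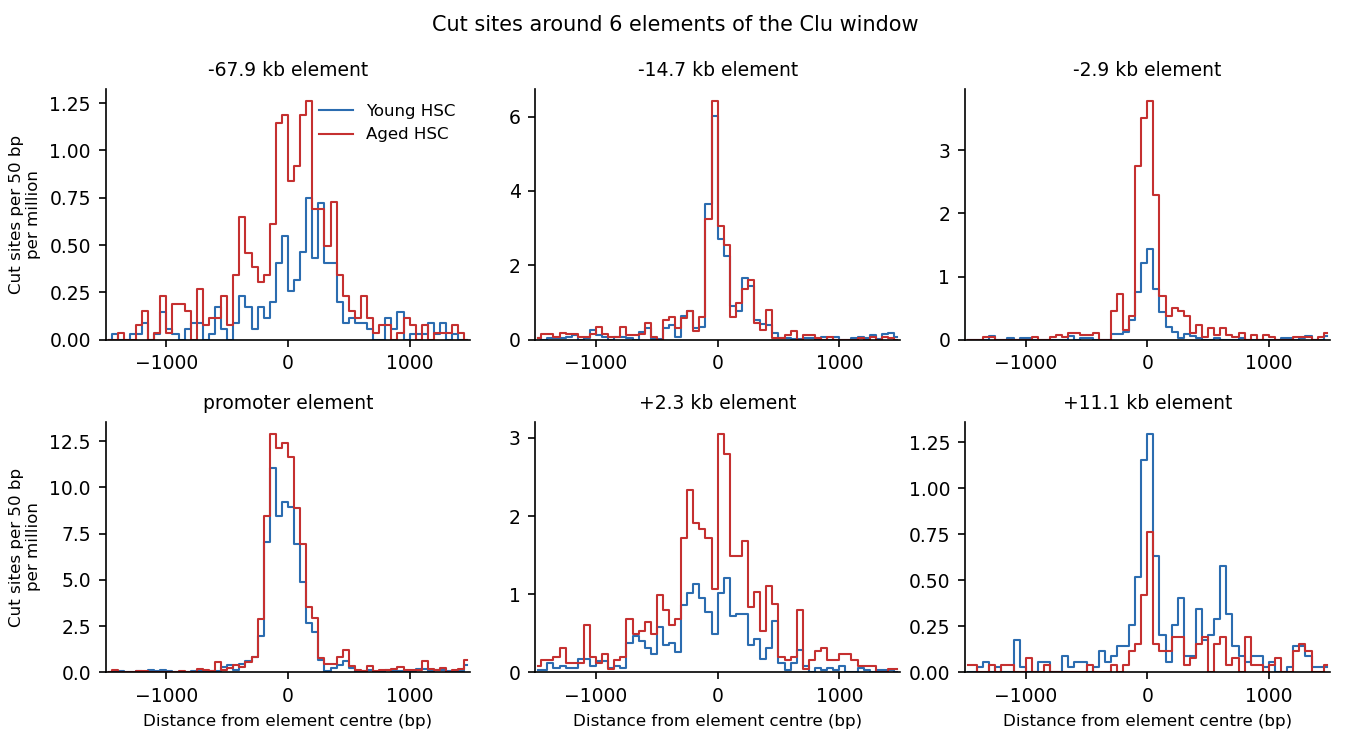
Cut sites per 50 bp and per 1000000 in-peak fragments (y axis) by distance from the centre of 6 elements in bp (x axis), young HSCs in blue and aged HSCs in red, 1 library each, with a scale of its own in each panel. Within 100 bp of the centre the aged line stands above the young one at the -67.9, -2.9 and +2.3 kb elements and below it at the +11.1 kb element. Further out the lines cross at each of these elements, and at the -14.7 kb element they nearly coincide.

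Most cells showed no fragment at a given element. A nucleus carries few copies of any locus and not all are cut, and the part of this in the shares was not tested. At the promoter element 20.7% of young (19.6 to 21.9) and 28.2% of aged cells (26.7 to 29.7) had a fragment. Because aged cells were sequenced more deeply, each cell was then thinned. Its fragments, in and outside peaks, were drawn in random order until 3000 in-peak fragments were reached (thinned cells below). This kept 4787 young and 3271 aged cells, and 100 and 134 shallower ones dropped out. After thinning the shares at the promoter element were 9.59% (8.77 to 10.5) and 12.1% (11.0 to 13.3), so the intervals still did not overlap.

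At equal depth each element other than the promoter element was seen in at most 3.91% of the cells of a library. The -2.9 kb element had a fragment in 0.836% of young (0.598 to 1.14) and 2.35% of aged cells (1.86 to 2.93), against 1.82% and 5.76% before thinning. For the +2.3 kb element the shares were 1.65% (1.31 to 2.05) and 3.58% (2.97 to 4.27), against 3.81% and 9.16% before thinning. At the -67.9 kb element they were 0.919% (0.669 to 1.23) and 1.99% (1.54 to 2.53), against 2.19% and 4.76%. At all 3 the intervals of the ages lay apart at equal depth. The +11.1 kb element ran the other way, with 0.731% (0.510 to 1.01) of young and 0.275% (0.126 to 0.522) of aged cells, against 1.68% and 0.705%, although its intervals at equal depth just overlap. The -14.7 kb element was seen in 3.51% (3.01 to 4.07) and 3.91% (3.28 to 4.64), intervals that overlap. For comparison, a bin of the window outside the elements had a fragment in 0.046% of young and 0.052% of aged thinned cells on average, and in at most 0.648% and 1.04%, so the highest of them exceed the aged share of the +11.1 kb element.

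**Figure D4:**
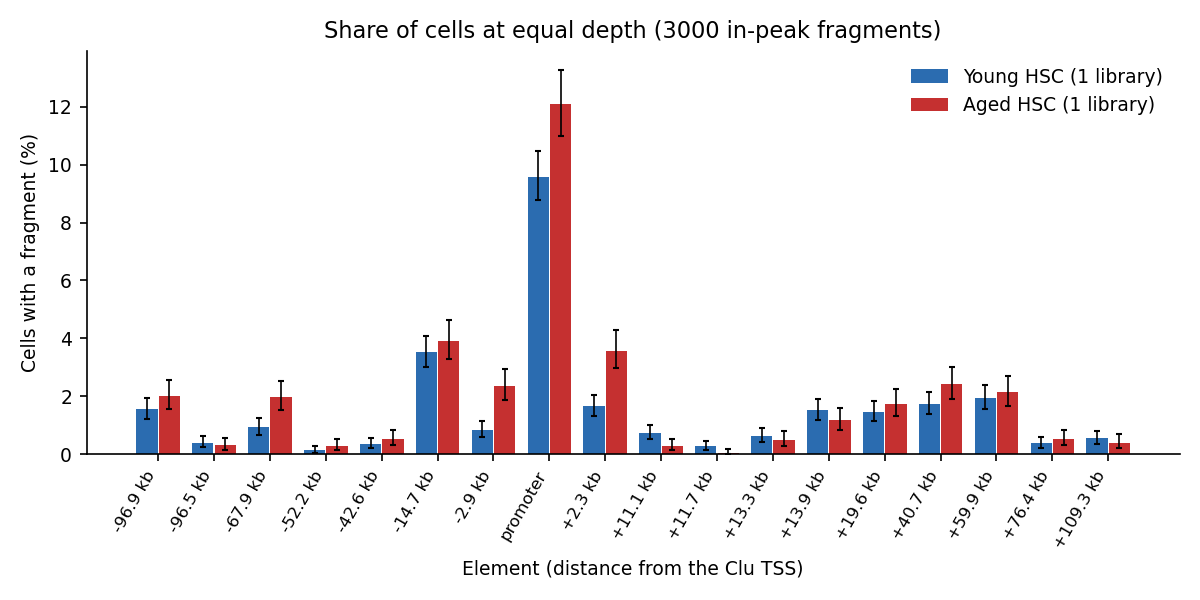
Percent of cells with at least 1 fragment (y axis) at each of the 18 elements (x axis) when 3000 in-peak fragments are drawn from each cell, in 4787 young (blue) and 3271 aged cells (red), with exact binomial 95% intervals. The promoter element is the highest in both, at 9.59% and 12.1%, and the error bars of the ages lie apart at the -67.9, -2.9 and +2.3 kb elements.

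Fragments in several elements of the window were rarely found in the same cell. Among thinned cells, 74.9% of young and 69.0% of aged cells had no fragment in any of the elements, 22.2% and 26.3% had fragments in 1, 2.74% and 4.40% in 2, and 0.125% and 0.367% in 3 or more. The variance of the number of window fragments per cell was 0.993 times the mean in young and 1.02 times the mean in aged cells, close to the value of 1 of a Poisson count. With means of only 0.427 and 0.531 fragments per cell, this value would stay near 1 even if cells differed moderately. No likeness between cells is therefore read from it. Of the 40 young cells with a fragment at the -2.9 kb element 20.0% (9.05 to 35.6) also had one at the promoter, against 9.88% of the cells without. In aged cells the shares were 10.4% (4.59 to 19.5) of 77 cells and 12.6% of the cells without. For the +2.3 kb element they were 7.59% (2.84 to 15.8) and 10.0% in young, and 10.3% (5.41 to 17.2) and 12.6% in aged cells. All of these intervals include the share in the cells without, so a link between elements within a cell was not detectable at this depth.

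To ask whether the values at Clu were spread over the cells of a library, cells were divided into 4 groups within each library by their share of in-peak fragments at 428 open DARs, regions that the study listed from bulk ATAC-seq as more accessible in aged HSCs, of which only coordinates were used. None of these regions lay in the Clu window. The median score of the groups ran from 12.7 to 28.0 per 10000 in-peak fragments in young and from 31.0 to 56.6 in aged cells, so the lowest aged group stood above the highest young one. The median depth of the groups ran from 6627 to 7186 in-peak fragments in young and from 6945 to 8021 in aged cells.

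Accessibility at the +2.3 kb element was higher in each following group of both libraries. In young cells it was 4.13, 4.88, 6.03 and 7.91 FPM from the lowest to the highest group, and in aged cells it was 7.73, 13.1, 14.7 and 16.3 FPM. The intervals of the lowest and highest groups lay apart in young (2.86 to 5.76 and 6.13 to 10.0) and in aged cells (5.72 to 10.2 and 13.3 to 19.9). The highest young group and the lowest aged group, 7.91 and 7.73 FPM, differed by less than their counting error. The promoter had 31.5, 33.1, 35.4 and 39.3 FPM in the young groups and 44.6, 42.9, 47.4 and 49 FPM in the aged ones, and in each library the intervals of the lowest and highest groups overlapped. Over the whole window these intervals lay apart, at 129.7 to 145.8 and 146.9 to 163.8 FPM in young and at 157.8 to 178.1 and 181.0 to 203.3 FPM in aged cells. In the gene body they lay apart in young cells (37.1 to 46.0 and 49.8 to 59.9 FPM) and just overlapped in aged cells (53.4 to 65.6 and 65.4 to 79.2 FPM). At the -2.9 kb element the young groups had 2.06, 2.11, 2.68 and 3.78 FPM and the aged ones 7.57, 6.83, 9.50 and 7.34 FPM, with no such order in aged cells. Even so, the lowest aged group (5.58 to 10.0) lay above the highest young one (2.58 to 5.33). The -67.9 kb element ran between 2.79 and 3.43 FPM over the young groups and between 5.81 and 7.67 FPM over the aged ones. For the +11.1 kb element the aged groups had 2.05, 1.02, 0.576 and 0.50 FPM, with 13, 7, 4 and 3 fragments, and the young ones lay between 1.89 and 2.79 FPM.

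**Figure D5:**
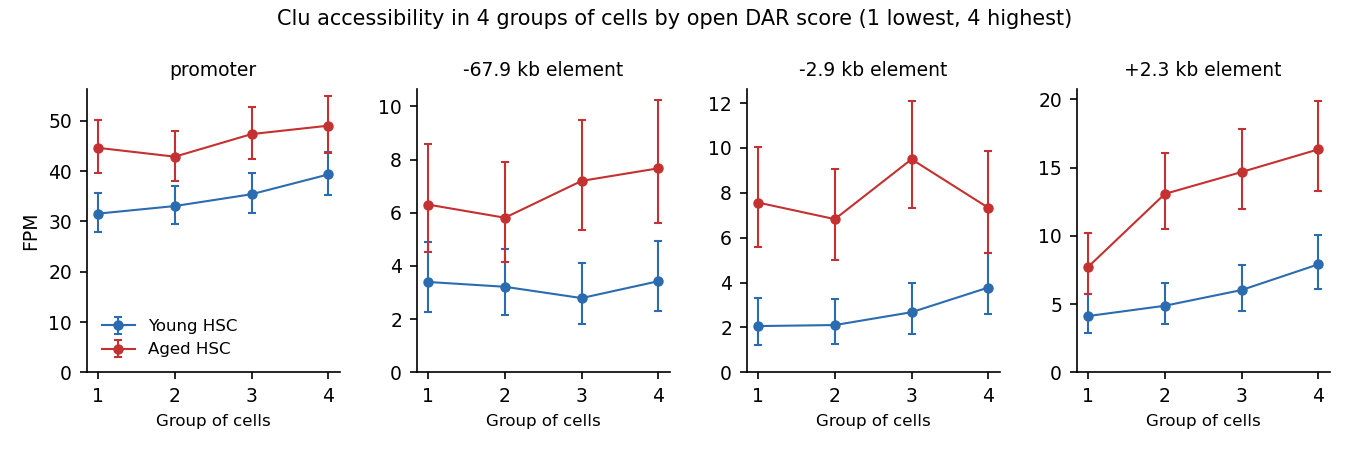
FPM (y axis, from 0) at the Clu promoter and 3 elements in 4 groups of cells formed within each library by their open DAR score (x axis, 1 lowest to 4 highest), young HSCs in blue and aged HSCs in red, with exact Poisson 95% intervals. The +2.3 kb element goes from 7.73 to 16.3 FPM over the aged groups, while the -2.9 kb element stays between 6.83 and 9.50 FPM.

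The base composition and consensus motifs of the elements were read from the GRCm38 sequence in the 300 bp around each centre, on both strands. The -14.7 kb and promoter elements were the richest in G and C, at 69.7% and 64.3%, and the other 16 lay between 45.7% and 58.7%. An AP-1 consensus, TGANTCA, bound by Jun and Fos proteins, was found in 6 of the 18 elements, against 12.2% of the 167395 peaks. These 6 were the -67.9, -42.6 and -2.9 kb elements, which were higher in aged cells, and the -96.9 kb, promoter and +59.9 kb elements, which lay within 1.5-fold. The longer CNC consensus GCTGANTCA, bound by factors such as Nrf2, NF-E2 and Bach with small Maf proteins, was found in 3.65% of all peaks. In the window it was found in the -67.9 kb element at chr14:65900534-65900542 and in the -2.9 kb element at chr14:65965625-65965633, in each case over the AP-1 match. The 300 bp read leave out the 50 bp with the most cut sites of the -67.9 kb element, at -67667 bp in both ages. They also leave out those of the +2.3 kb element in young cells, at 2133 bp. In its central 300 bp the +2.3 kb element held neither the AP-1 nor the CNC consensus. A GATA consensus, AGATAA, was found in it, in the -67.9 kb element and in the +13.9 kb element, 3 of 18, against 13.8% of all peaks. A MEIS consensus, TGACAG, was in 4 (the -52.2, -2.9, +11.7 and +13.9 kb elements), against 20.6%, and a RUNX consensus, TGTGGTT, in 3 (the -67.9, +11.7 and +59.9 kb elements), against 11.8%. KLF/SP, CCCCGCCC, was in the -14.7 and +109.3 kb elements, against 5.29% of peaks, PU.1, GAGGAAGT, in the -96.5 kb element, against 7.86%, and the ISRE, GAAANNGAA, in the -96.9 kb element, against 12.0%. Of the 13 motifs searched, those of STAT, Ets, C/EBP and heat shock factors and the CRE were in none of the 18 elements. Over all peaks they were found in 1.21%, 0.992%, 0.0729%, 7.60% and 0.575% in the same order, and their absence says only that these letters were not in the central 300 bp.

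The promoters of the other protein-coding genes with a start in the window had smaller ratios than that of Clu. Scara3, a scavenger receptor family member, had 12.7 and 13.8 FPM at its promoter, a log2 ratio of 0.12 (-0.08 to 0.33). Gulo, the last enzyme of vitamin C synthesis, had 6.60 and 8.37 FPM and a ratio of 0.34 (0.07 to 0.62). Adam2, a sperm surface protein, had 1.87 and 1.91 FPM and a ratio of 0.03 (-0.53 to 0.58). The intervals of all 3 overlap that of Clu, and the differences between the genes were not tested.

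Promoters of genes that act with clusterin or on its gene, and of other secreted chaperones, were mostly alike in both ages. Of 30 such genes 26 reached 20 fragments, 1 was higher and none was lower, near the shares of 5.42% and 2.78% over all promoters, with a median log2 ratio of -0.05, close to that over all promoters. The higher one was A2m, the secreted protease inhibitor and chaperone alpha-2-macroglobulin, with 20 and 31 fragments and a ratio of 1.01 (0.18 to 1.93). Among the 10 receptors and binding partners ratios ran from -0.33 to 0.39. The highest was that of Vldlr, the very-low-density lipoprotein receptor, at 12.7 and 16.7 FPM (0.20 to 0.58). Lrp2, the receptor megalin, had 0.15 (-0.07 to 0.37), Lrp8 had 0.02 (-0.13 to 0.16) and Lrp1 had -0.22 (-0.42 to -0.03). The median over the 10 was -0.11. The 10 transcription factors, among them Hsf1, Jun and Egr1, ran from -0.13 to 0.08. Most of the terminal complement genes were nearly closed, with 4 of 6 under 20 fragments.

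The genes most like Clu in the level and ratio of promoter and gene body, by the distance over 4 log2 values among 15951 genes, were Id4, Eif4ebp1, Snx33, Tnfaip2 and Cmpk2. Id4, a helix-loop-helix inhibitor of DNA binding, was the nearest at a distance of 0.12, with 36.8 and 48.3 FPM at its promoter and a log2 ratio of 0.39. The other 4 lay at 0.33 to 0.38, and their promoter ratios ran from -0.01 to 0.12, so they resembled Clu in level more than in ratio. Likeness was measured on 2 libraries only.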

How the data were processed

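Single-cell ATAC-seq data of 1 young and 1 aged HSC library were used. Per the methods, the authors made the libraries with a Chromium Next GEM kit (v1.1) from about the same number of sorted cells per age, and used Cell Ranger ATAC with mm10. They removed duplicates and shifted fragment ends for the transposase. The deposited fragment lists and barcode tables hold unnormalized counts, of read pairs per fragment and of fragments per barcode. The authors' calls of cells and in-peak counts set which cells were kept.

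The gene, gene lists and comparisons were chosen with earlier results of these data known. Peaks were called on cut sites in 151-bp windows against the larger of the genome mean and the mean of 10000 bp (Poisson, q under 0.001) and merged over gaps of 50 bp. A fragment was counted once in a region that held at least 1 of its ends. To each count 1 fragment was added before the log2 ratio of aged to young was taken, with the interval of the binomial share, while single values have exact Poisson intervals and shares exact binomial ones. PCR copies were removed only by position, so intervals cover counting error alone. Genes came from GENCODE M21, and 1 clusterin list gene, C5, was matched by its mouse symbol Hc. Chosen to be named were Clu, all protein-coding genes starting in the window, a clusterin list, the 5 genes nearest to Clu, elements past 1.5-fold with at least 50 fragments, and the 3 elements with the most fragments. Values of some further elements are given beside them. Of the HSC markers 1 is not reported here. Doublets were neither called nor removed. The counting was tested on simulated data. Analyses used Python 3.11.15, numpy 2.4.6, pandas 2.3.3, scipy 1.17.1 and numba 0.67.0.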

Additional observations from a re-analysis of the deposited data

Results flagged for a closer look

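Barcodes that were not called as cells, which the comparisons above do not use, also held fragments of the Clu window. These 195833 young and 184822 aged barcodes gave 337 and 615 window fragments, 216.4 and 396.1 FPM, a log2 ratio of 0.87 (0.68 to 1.07), and 47 and 71 promoter fragments, 30.2 and 45.7 FPM, a ratio of 0.59 (0.05 to 1.16). The share of their fragments that lay in peaks was 52.3% in young and 29.7% in aged barcodes. Scaled to all their fragments instead, the window ratio was 0.05 (-0.14 to 0.25) and the promoter ratio -0.23 (-0.77 to 0.35). The change of scaling shifts all regions of these barcodes alike, and both of the latter intervals include 0, so no direction is read from these values.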

How the results depend on the processing

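No paired analysis was possible because each age has 1 library, and none could be left out in turn. Under the alternatives the promoter ratio ran from 0.35 to 0.66, the gene body ratio from 0.38 to 0.57 and the window ratio from 0.29 to 0.39, on the log2 scale. Of these 3, the only values outside the counting interval were the promoter ratio with 5 kb on either side (0.66), which takes in both the -2.9 and +2.3 kb elements, and the gene body ratio without 1 kb after the TSS (0.57). No result changed direction. The -2.9 kb element ran from 1.45 to 1.60, the +2.3 kb element from 1.06 to 1.22, the -67.9 kb element from 1.03 to 1.12 and the +11.1 kb element from -1.30 to -1.13. The -42.6 kb element, with 28 and 47 fragments, ran from 0.63 to 1.42. The +76.4 kb element, with 35 and 42 fragments, ran from 0.49 to 1.37, passed under 1.5-fold in part of them, and with short fragments alone (1.37) lay outside its counting interval.

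Counts of bins moved most. The first 4 settings below change by construction which bins reach the minimum. With cut sites counted, 44 bins were higher and 15 lower, with fragments shorter than nucleosomal DNA 9 and 3, with thinned cells 14 and 2, and with a minimum of 50 fragments 13 and 2. At 2-fold, which leaves the minimum as it was, 15 bins were higher and 4 lower. Shares over all bins of the autosomes and X were not taken under these settings, so these counts have no background. Depth limits the elements under 50 fragments and any link between elements within a cell.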
